A study of Homo sapiens with 4 samples.

Results

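The genes described here are 50 genes of G2 phase and mitosis, among them cyclins and CDK1, mitotic kinases, spindle checkpoint and kinetochore proteins, kinesins, and the proteins that end mitosis and split the cell. They were given as a list of symbols, and every probe whose accession mapped to a listed symbol was taken. All 50 were found among the 25118 gene symbols on the array, with 61 probes, and all 61 probes were well above background on each array.

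RNA was taken from PC3 and DU145, established androgen-insensitive human prostate cancer cell lines. Each line carried either a control shRNA against luciferase (PC3-shC, DU145-shC) or an shRNA against ESS2 (PC3-shESS2, DU145-shESS2), where ESS2 is a nuclear protein found with spliceosome components. The labels call the cells transduced, and the methods describe plasmid transfection and puromycin selection for PC3. The sources used here do not give whether the cells were clones or pools, or how the DU145 cells were made. Each condition had 1 one-colour Agilent array, so no difference within a line has a replicate check or a p-value, and precision is limited by how few arrays there are. PC3 and DU145 were hybridised on separate slides and scanned separately, so the slide and the cell line cannot be told apart.

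Genes of G2 and mitosis are transcribed late in the cell cycle and are nearly silent in resting cells, so their mRNA is widely used as a measure of dividing cells. Many of their promoters hold a CHR, the cell cycle genes homology region, which is bound by the MuvB complex. MuvB represses the genes as part of the DREAM complex in resting cells, and activates them with B-MYB and FOXM1 in cycling cells. CCAAT boxes, which are bound by the factor NF-Y, usually lie upstream of the CHR.

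The targeted gene was lower in both shESS2 lines. The ESS2 signal was 133 in PC3-shC, 53.6 in PC3-shESS2, 85.7 in DU145-shC and 17.3 in DU145-shESS2, a log2 ratio of -1.45 in PC3 and -2.35 in DU145. The 75th percentile of the signal, to which each array was scaled, lay between 212 and 290, and the share of non-control spots above background by the scanner software's test was 50.8% to 52.6%. All 4 epithelial markers (KRT8, KRT18, EPCAM and CDH1) were well above background on each array, while KLK3 was so on none. EPCAM differed in the same DU145 comparison by more than any of the mitotic genes, with signals of 2120 in DU145-shC and 357 in DU145-shESS2 (log2 ratio -2.61) and 30700 and 26100 in PC3 (-0.38). KRT8, KRT18 and CDH1 had ratios of 0.28, -0.03 and -0.0032 in DU145, and the part of these markers in the results was not tested. GAPDH had log2 ratios of 0.18 and 0.04 and ACTB of 0.15 and -0.04 in PC3 and DU145. Of the markers of other cell types, CD3E, COL1A2 and DCN were not well above background on any array, PECAM1 was on the PC3 arrays, with signals of 338 in PC3-shC and 16.4 in PC3-shESS2 (log2 ratio -4.51), and PTPRC, COL1A1, VWF and CDH5 were on all 4.

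In DU145, 49 of the 50 genes had a lower scaled signal in DU145-shESS2 than in DU145-shC, and CDC25B alone was higher. The median log2 ratio (shESS2 over shC, on scaled signals) was -0.54, from -1.02 for PTTG1 to 0.35 for CDC25B, with quartiles of -0.68 and -0.35. Over the 16841 genes compared in DU145 the median was -0.02 and 52.7% were below 0, and 10.0% of them lay below the median of the mitotic genes. As each array measured the RNA of a whole culture, fewer cells in G2 and mitosis and less of these mRNAs per cell cannot be told apart. Of the 50 genes, 23 were lower by over 1.5-fold against 8.64% of all genes, and 2, ESPL1 and PTTG1, were lower by over 2-fold against 2.48% of all genes. None was higher by over 1.5-fold, as 7.21% of all genes were. The count past 1.5-fold was 15 with normexp background correction, against 2.86% of all genes under that setting, and the count past 2-fold was 1 with normexp and 0 with median scaling or the deposited value table. CCNB1 (-0.60) and PLK4 (-0.60) lay just past the 1.5-fold line, and BUB1 (-0.57) and PRC1 (-0.54) fell just short of it.

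In PC3, the same genes lay around the median of all genes. The median log2 ratio was -0.07, and it was 0.01 with quantile normalization and 0.02 in the deposited value table. The range was from -0.56 for MYBL2 to 0.58 for KIF2C, with quartiles of -0.17 and 0.16. Of the 50 genes, 30 were lower and 20 higher in PC3-shESS2, where 55.7% of the 16752 genes compared in PC3 were below 0 and their median was -0.05. The count lower was 35 with median scaling, 22 with quantile normalization and 23 in the deposited value table. None was past 1.5-fold in either direction, against 10.0% of all genes lower and 10.1% higher by over 1.5-fold and 3.88% lower by over 2-fold. With median scaling, which moved the median of all genes in PC3 to -0.16, 3 of the 50 were lower by over 1.5-fold, against 13.8% of all genes under that setting.

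**Figure D1:**
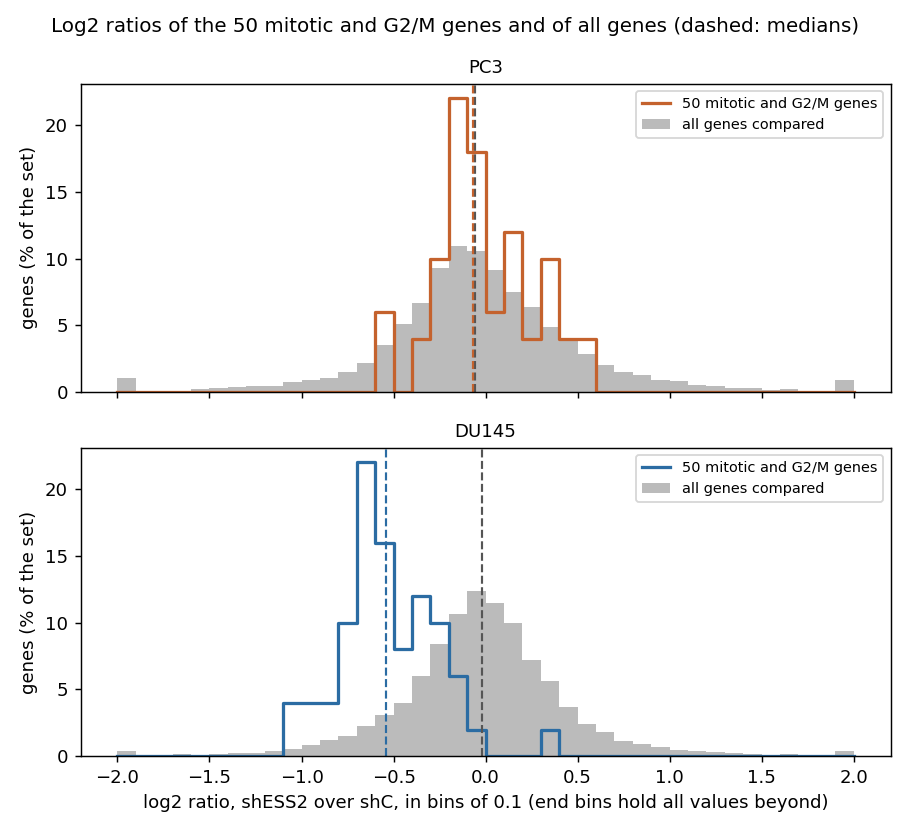
Distribution of the log2 ratio of scaled signal, shESS2 over shC, in bins of 0.1 (horizontal axis), as the percentage of genes in each set (vertical axis), in PC3 above and DU145 below. Grey bars are all genes compared, the coloured line is the 50 mitotic and G2/M genes, and dashed lines are the medians. In DU145 the coloured median (-0.54) lies to the left of the grey one (-0.02), while in PC3 the medians are -0.07 and -0.05.

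The size of these ratios can be set against the spread between spots. Among the probes spotted 10 times, the SD of the log2 ratio between single spots had a median of 0.08 in each line, over 286 probes in PC3 and 283 in DU145. This covers the spotting and scanning of 1 pair of arrays, and neither the hybridisation nor the cells. Beyond 2 of these median SDs (0.16), 46 of the 50 genes were lower and 1 was higher in DU145, against 33.9% lower and 29.7% higher of all genes. In PC3, 13 were lower and 13 higher, against 38.7% and 30.7% of all genes. The scanner software's own error of a log2 ratio was larger, between 0.20 and 0.21 for the 50 genes. Beyond 2 such errors, 34 were lower and 0 higher in DU145, against 12.3% and 10.3% of all genes. In PC3, 3 were lower and 4 higher by this measure, against 15.2% and 13.3%.

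The direction was also read under 9 alternative settings of scaling, background correction, filter and probe choice. In DU145, 48 of the genes were lower and CDC25B was higher under each of them, and only INCENP changed its sign (-0.04 to 0.02). In PC3, 21 were lower and 15 higher under each, and 14 changed their sign. Not all of these settings were separate checks. As all 61 probes were well above background, the settings for dim signals and the background filters could not change these ratios. Median scaling and the deposited value table shift all ratios of a line by the same amount.

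A search of the promoter sequences gave what these genes share in their DNA. RefSeq promoter windows on GRCh38.p14, from 250 bases before to 50 after a gene's start, were given for 43 of the 50 genes, in 55 windows, and AURKA, BIRC5, BUB3, FOXM1, TPX2, TTK and UBE2C were not matched. Motifs were searched on both strands, the CHR as TTTGAA or TTTAAA, which does not change when read on the other strand, and the CCAAT box as CCAAT, which reads ATTGG on the other strand. TTTGAA was in 63.6% of the 55 windows and in 15.2% of all 35116 windows, and TTTAAA in 29.1% and 12.2%. CCAAT was in 74.5% against 34.6%. Either form of the CHR together with CCAAT was in 33 of the 55 windows of these genes, against 9.27% of all windows. The E2F motifs TTTCCCGC and TTTGGCGC were each in 1 window of these genes (1.82%), against 1.63% and 0.65% of all windows. Counted by gene, 38 of the 43 genes held a form of the CHR, as did 27.9% of all genes with a window, and in 26 of them it began within 60 bases before the start, as in 6.85% of all genes.

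The 100 bases before the start are shown for 7 genes, chosen after their values were seen. They are the 3 genes with the lowest ratios in DU145 among those with a window (ESPL1, PTTG1 and HMMR), CCNB2 and PLK1, whose DU145 ratios lay near the median, CDC20, with opposite ratios in the lines, and INCENP, whose ratios lay near 0. All lie on the plus strand, and capitals mark each match of the CHR or the CCAAT box on either strand.
ESPL1 (chr12:53268199-53268298): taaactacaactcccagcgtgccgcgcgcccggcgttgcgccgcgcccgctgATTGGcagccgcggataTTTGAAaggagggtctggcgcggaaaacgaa
PTTG1 (chr5:160421755-160421854): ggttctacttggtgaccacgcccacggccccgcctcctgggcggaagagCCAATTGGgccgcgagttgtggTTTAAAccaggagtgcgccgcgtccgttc
HMMR (chr5:163460532-163460631): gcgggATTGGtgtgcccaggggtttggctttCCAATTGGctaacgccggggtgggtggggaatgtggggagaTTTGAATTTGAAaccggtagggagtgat
CCNB2 (chr15:59105046-59105145): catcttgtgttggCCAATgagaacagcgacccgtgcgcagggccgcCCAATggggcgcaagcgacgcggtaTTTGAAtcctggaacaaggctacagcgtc
PLK1 (chr16:23678789-23678888): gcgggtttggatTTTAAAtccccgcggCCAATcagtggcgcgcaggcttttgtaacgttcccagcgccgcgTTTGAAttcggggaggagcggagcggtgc
CDC20 (chr1:43358881-43358980): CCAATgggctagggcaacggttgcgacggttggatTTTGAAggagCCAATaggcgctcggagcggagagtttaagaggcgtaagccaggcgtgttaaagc
INCENP (chr11:62123911-62124010): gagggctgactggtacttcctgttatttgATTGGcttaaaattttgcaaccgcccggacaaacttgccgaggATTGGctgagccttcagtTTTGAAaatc

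In each of these stretches but that of CDC20, the CHR match nearest the start lies closer to it than every CCAAT match. In PTTG1 and HMMR a CCAAT match on one strand overlaps one on the other, and HMMR holds the CHR as a tandem pair. INCENP, whose DU145 log2 ratio was -0.02, holds the same motifs as ESPL1, whose ratio was -1.02. Among the 43 genes, the median DU145 log2 ratio was -0.53 for those with TTTGAA in a window and -0.62 for those without, and the order was the other way round for TTTAAA, with -0.61 and -0.53. A match is only a run of letters, and binding was not measured.

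**Figure D2:**
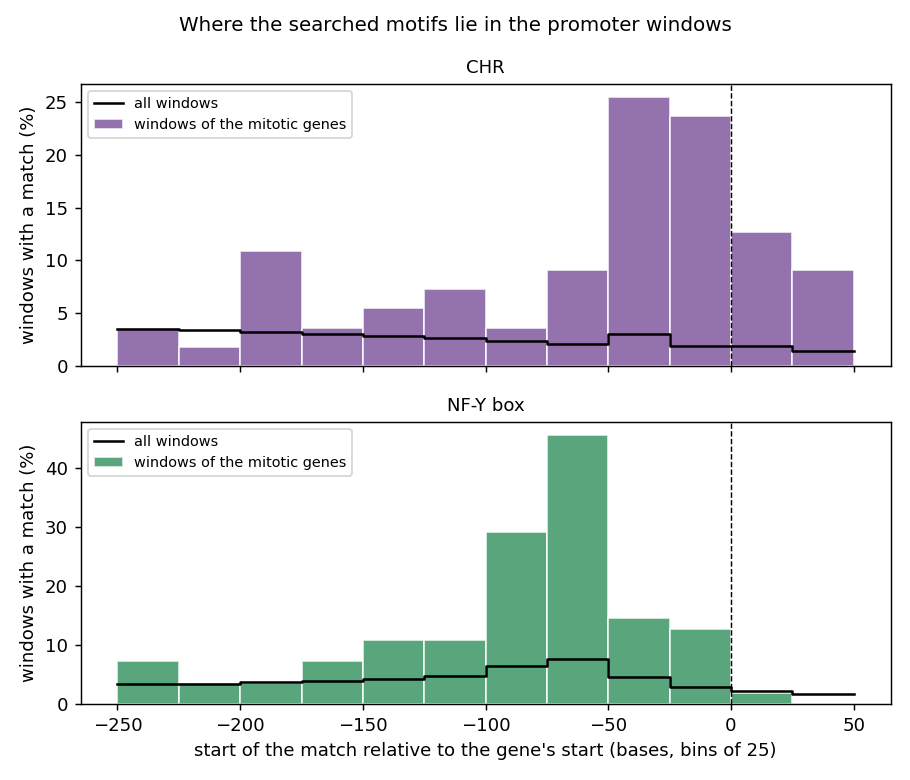
Share of promoter windows (vertical axis, percent) with a match that starts in each 25-base bin, by distance from the gene's start (horizontal axis, bases). Coloured bars are the 55 windows of the mitotic and G2/M genes, some of which have several windows, and the black line is all 35116 windows, for the CHR above and the CCAAT box (NF-Y box) below. The CHR bars are highest between 50 and 25 bases before the start, at 25.5% against 3.08% of all windows, and the CCAAT bars between 75 and 50 bases before it, at 45.5% against 7.62%.

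The transcription factors of these genes, MYBL2 and FOXM1, were lower in both lines, FOXM1 by less. MYBL2 encodes B-MYB, and its signal was 1700 in PC3-shC, 1270 in PC3-shESS2, 523 in DU145-shC and 439 in DU145-shESS2. It had the lowest ratio of all 50 genes in PC3, with log2 ratios of -0.56 there and -0.29 in DU145. With quantile normalization or normexp, NDC80 was lower than MYBL2 in PC3. FOXM1 gave 2130 and 2110 in PC3 and 852 and 761 in DU145. Its log2 ratio was -0.15 in PC3, within 2 of the median spot SDs, and -0.20 in DU145. The DU145 ratios of both genes lay within 2 scanner errors. In this pair alone the DU145 median (-0.25) was closer to 0 than the PC3 median (-0.36).

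Cyclins bind CDK1, the kinase that drives entry into mitosis, and the CDC25 phosphatases switch it on. CDK1 was measured by a probe spotted 10 times, with signals of 15205 and 12989 in PC3 and 3726 and 2153 in DU145. Its log2 ratio was -0.37 in PC3 (spot SD 0.09) and -0.83 in DU145 (spot SD 0.09), lower in both and by more in DU145. CCNA2, cyclin A2, also spotted 10 times, gave 868 and 1104 in PC3 and 553 and 344 in DU145. Here the lines went opposite ways, 0.20 (spot SD 0.14) in PC3 and -0.73 (spot SD 0.12) in DU145. CCNB1, cyclin B1, gave 8850 and 10400 in PC3 and 4490 and 3050 in DU145, and CCNB2, cyclin B2, gave 8740, 9240, 8670 and 5840 on the arrays in the same order. Both B cyclins were lower in DU145 (-0.60 and -0.61) and near 0 in PC3 (0.09 and -0.06), with a sign in PC3 that changed between settings. CKS2, a small CDK-binding protein, had log2 ratios of -0.14 in PC3 and -0.26 in DU145. The CDC25 phosphatases parted in DU145. CDC25B was the one gene of the 50 that was higher there, from 1830 to 2400 (log2 ratio 0.35), with 2200 and 2600 in PC3 (0.10, and about 0 with median scaling). CDC25C gave 278 and 198 in DU145 (-0.53) and 360 and 454 in PC3 (0.19). Of these 7 genes, 4 were lower by over 1.5-fold in DU145, against 8.64% of all genes, and the median of the 7 was -0.60.

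**Figure D3:**
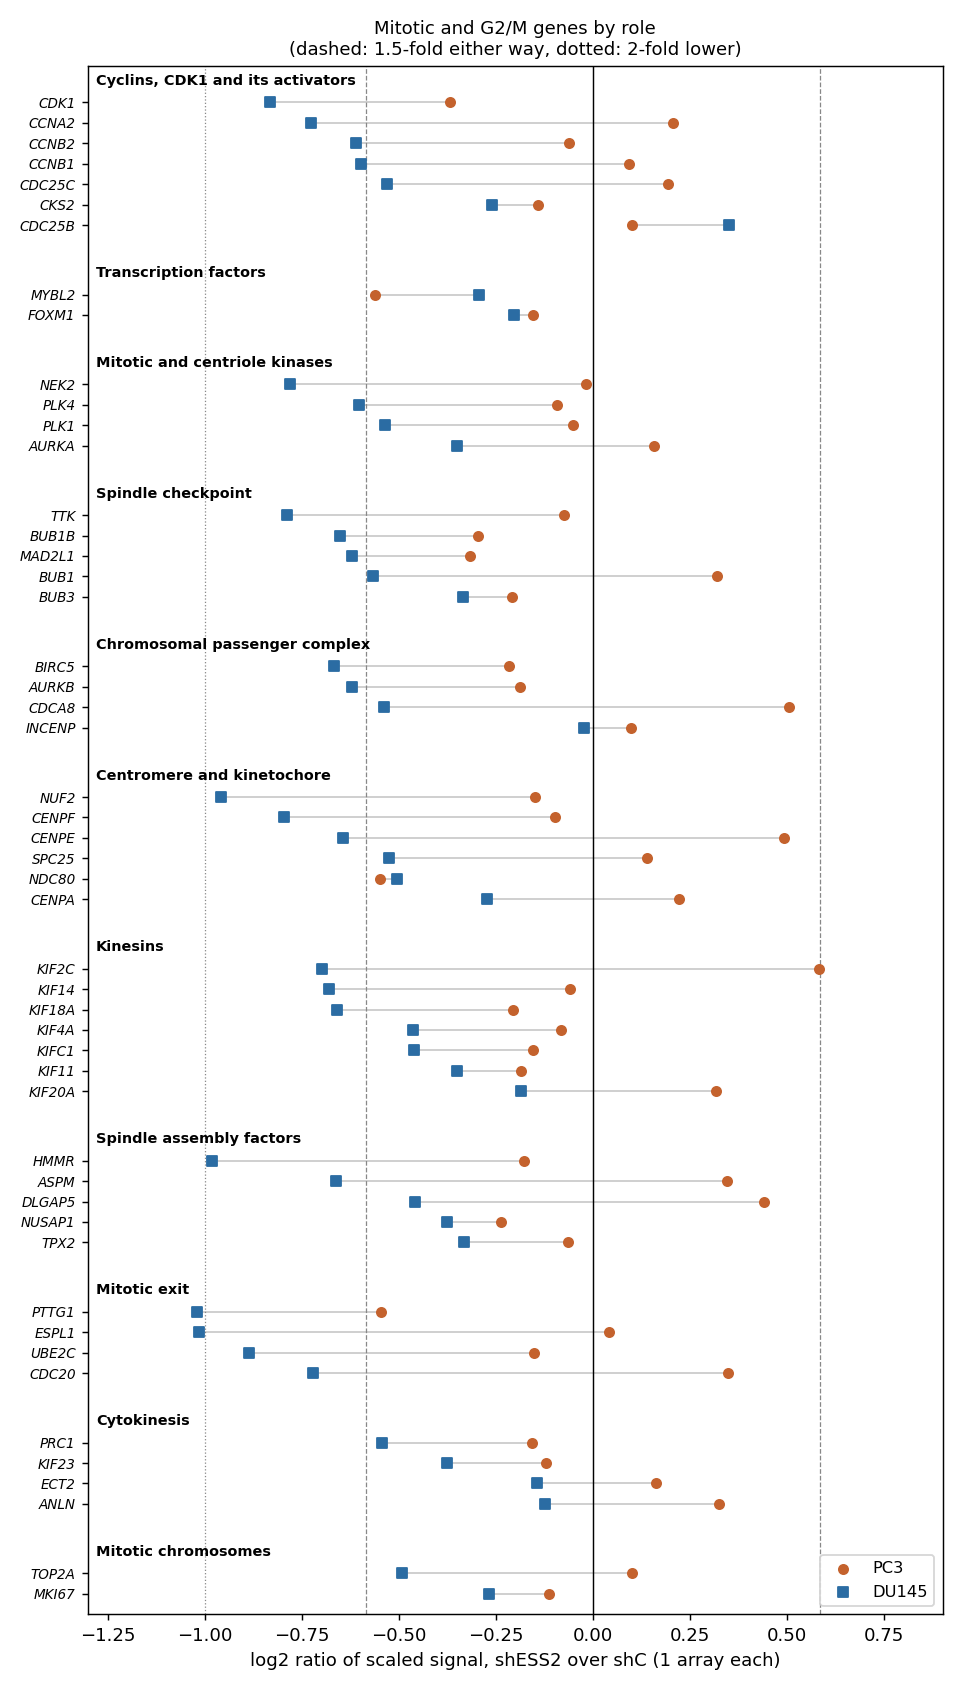
Log2 ratio of scaled signal, shESS2 over shC (horizontal axis), for each of the 50 genes, grouped by role and ordered by the DU145 value. Orange circles are PC3 and blue squares DU145, with 1 array for each condition, dashed lines at 1.5-fold either way and a dotted line at 2-fold lower. The DU145 squares lie left of 0 except for CDC25B, while the PC3 circles lie between -0.56 and 0.58.

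Mitotic and centriole kinases were lower in DU145 and close to 0 in PC3. PLK1, polo-like kinase 1, which acts from mitotic entry to cytokinesis, gave 1080 and 1150 in PC3 and 510 and 362 in DU145, log2 ratios of -0.05 and -0.53. Its other probe gave 0.27 in PC3 and -0.56 in DU145, so that the probes had the same sign in DU145 only. NEK2, which separates the centrosomes, gave 386, 420, 461 and 276, and was lower in DU145 (-0.78) and at -0.02 in PC3. PLK4, which starts centriole duplication, had the lowest signals of the 50 genes on each array (234, 242, 158 and 107) and log2 ratios of -0.09 and -0.60. AURKA, the kinase of the spindle poles, had ratios of 0.16 in PC3 and -0.35 in DU145.

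The spindle checkpoint delays chromosome separation until every chromosome is attached. All 5 of its genes were lower in DU145, with a median of -0.62, and 3 of them by over 1.5-fold, against 8.64% of all genes. TTK, the checkpoint kinase MPS1, gave 639 and 669 in PC3 and 472 and 281 in DU145, log2 ratios of -0.07 and -0.79. BUB1B and MAD2L1, whose products inhibit CDC20, were at -0.65 and -0.62 in DU145 and at -0.30 and -0.32 in PC3. The kinase BUB1 gave 2240 and 3080 in PC3 and 1570 and 1090 in DU145, and was thus higher in PC3 (0.32) and lower in DU145 (-0.57). BUB3, their partner at the kinetochore, was at -0.21 and -0.33.

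The chromosomal passenger complex corrects wrong attachments and guides cytokinesis. BIRC5, survivin, was the brightest of the 50 genes in PC3-shC and was spotted 10 times, with signals of 39828 and 37830 in PC3 and 15507 and 10036 in DU145. Its log2 ratio was -0.22 (spot SD 0.05) in PC3 and -0.67 (spot SD 0.05) in DU145. AURKB, the kinase of the complex, gave 879, 851, 634 and 424 and ratios of -0.19 and -0.62. CDCA8, borealin, gave 6580 and 10300 in PC3 and 3570 and 2530 in DU145, among the widest gaps between the lines (0.51 and -0.54). INCENP, the scaffold of the complex, gave 1991, 2349, 477 and 483 over 10 spots, and its ratios of 0.10 and -0.02 lay within 2 spot SDs of 0 (spot SD 0.07 and 0.10). Within this complex of 4 proteins, the DU145 ratios therefore ran from -0.67 to -0.02.

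Centromere and kinetochore genes had a median of 0.02 in PC3, below 0 with median scaling, and -0.58 in DU145, where all 6 were lower. NUF2, SPC25 and NDC80 are subunits of the NDC80 complex, which holds the microtubule end. NUF2 gave 906 and 901 in PC3 and 755 and 400 in DU145, log2 ratios of -0.15 and -0.96. NDC80 itself gave 6010, 4530, 5400 and 3910, and was lower by nearly the same amount in both lines (-0.55 and -0.51). SPC25 was at 0.14 and -0.52. CENPE, the motor that carries chromosomes to the spindle equator, was spotted 10 times and gave 1050 and 1628 in PC3 and 1229 and 808 in DU145. Its ratios of 0.49 (spot SD 0.07) and -0.64 (spot SD 0.08) had opposite signs, as did those of the centromeric histone CENPA (0.22 and -0.27). CENPF, a kinetochore protein of G2, gave 16200, 16700, 12500 and 7410 and was at -0.10 in PC3 and -0.79 in DU145.

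The kinesins are motors of the spindle, and all 7 were lower in DU145, with a median of -0.46. KIF2C, which takes microtubule ends apart, had the largest difference between the lines, with signals of 5420 and 8950 in PC3 and 3660 and 2320 in DU145 and log2 ratios of 0.58 and -0.70. KIF20A, of the central spindle, also had opposite signs (0.32 and -0.19). KIF14 and KIF18A were lower by over 1.5-fold in DU145 (-0.68 and -0.66), at -0.06 and -0.20 in PC3. KIF4A, KIFC1 and KIF11, the last being the motor that separates the spindle poles, were at -0.46, -0.46 and -0.35 in DU145 and at -0.08, -0.15 and -0.18 in PC3.

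Spindle assembly factors bind microtubules and build the spindle. HMMR gave 5260 and 5130 in PC3 and 3340 and 1740 in DU145, log2 ratios of -0.18 and -0.98. ASPM, which focuses the spindle poles, gave 2440, 3420, 3740 and 2430, and was higher in PC3 (0.35) and lower in DU145 (-0.66). Its other probe gave 0.36 and -0.57, so both probes had these signs. DLGAP5, which stabilises the fibres at the kinetochore, gave 4540 and 6790 in PC3 and 2270 and 1700 in DU145 (0.44 and -0.46). NUSAP1 was at -0.24 and -0.38, and TPX2, the activator of Aurora A, at -0.07 and -0.33.

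The genes of mitotic exit had the lowest group median in DU145, while HMMR and NUF2 of other groups lay below UBE2C, and CDC20 was not among the lowest. With CDC20, the anaphase-promoting complex and its ubiquitin-conjugating enzyme UBE2C mark securin for destruction, which frees separase to cut cohesin. PTTG1, securin, gave 28200 and 21300 in PC3 and 15100 and 7660 in DU145, and was lower in both (-0.55 and -1.02). ESPL1, separase, gave 2390, 2710, 2300 and 1170, and was 2.02-fold lower in DU145 (-1.02) and at 0.04 in PC3. UBE2C gave 24900 and 24700 in PC3 and 8340 and 4640 in DU145 (-0.15 and -0.89). CDC20 gave 2380, 3340, 1650 and 1030, with opposite ratios of 0.35 and -0.72. All 4 were lower by over 1.5-fold in DU145, against 8.64% of all genes, with a median of -0.95. Their PC3 median was -0.06, or 0.03 with quantile normalization.

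Cytokinesis genes had ratios closer to 0 in DU145, with a median of -0.26 and none of 4 lower by over 1.5-fold, against 8.64% of all genes. PRC1, which bundles the microtubules of the midzone, gave 5230, 5170, 7930 and 5600 and ratios of -0.16 and -0.54. KIF23, the motor of centralspindlin, was at -0.12 and -0.38. ECT2 and ANLN, which act on RhoA and the contractile ring, gave -0.14 and -0.12 in DU145 and 0.16 and 0.32 in PC3. Of the genes of mitotic chromosomes, TOP2A, which untangles DNA, gave 1640, 1940, 3090 and 2260 and ratios of 0.10 and -0.49. MKI67, the gene of the Ki-67 antigen, gave 779, 794, 1230 and 1050 and ratios of -0.11 and -0.27 on the brightest of its 3 probes.

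**Figure D4:**
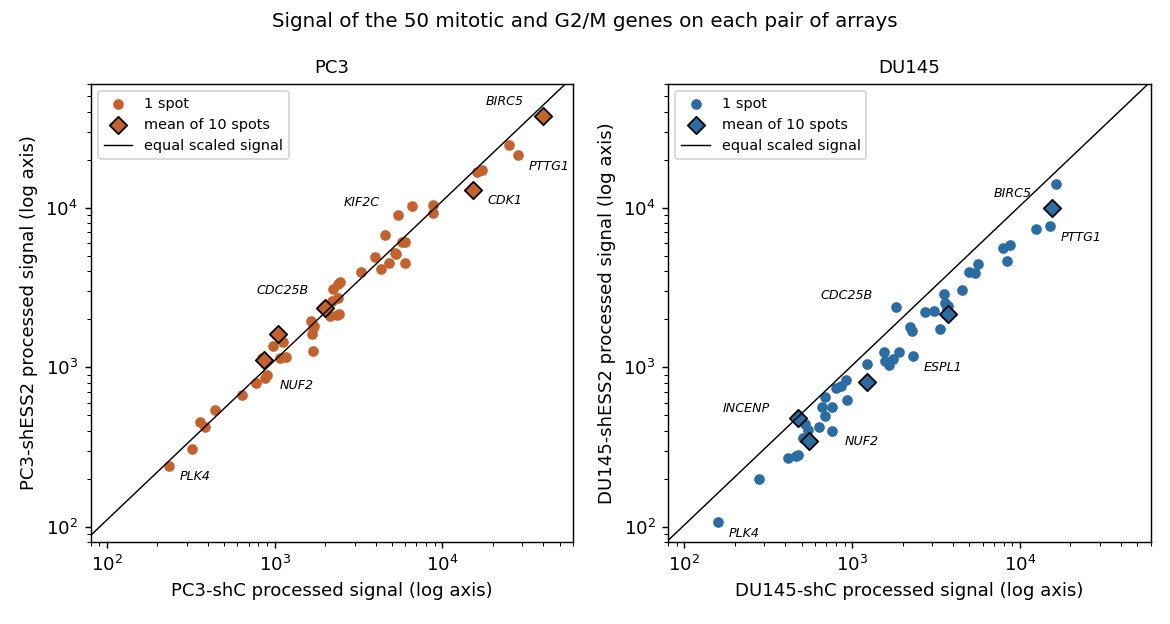
Processed signal of each of the 50 genes on the shC array (horizontal, log axis) and the shESS2 array (vertical, log axis) of PC3 (left) and DU145 (right). Diamonds are the 5 genes whose probe was spotted 10 times, circles those measured by 1 spot, and the line marks equal scaled signal. In DU145 the points lie below the line from PLK4 (158 and 107) to PTTG1 (15100 and 7660), except CDC25B.

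Where a gene had several probes, they could be set against each other. In DU145, 60 of the 61 probes were lower, and all 10 genes with several probes had the same sign on each. The widest span was that of MKI67, with log2 ratios from -0.97 to -0.15 over its 3 probes, followed by CDK1, whose other probe gave -0.27. In PC3, 36 of the 61 probes were lower, and 5 of the 10 genes had the same sign on each probe. The probes of CCNB1 gave 0.09 and -0.20 there, and MKI67 ran from -0.50 to -0.06.

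The lines were then compared gene by gene. The PC3 log2 ratio was above the DU145 ratio for 47 of the 50 genes, against 47.7% of the 15449 genes compared in both lines, and by over 1.5-fold for 20 of them, against 12.6%. The median difference was 0.49 over the 50 genes and -0.02 over all genes. The 3 exceptions were CDC25B (-0.25), MYBL2 (-0.27) and NDC80 (-0.04). In all, 30 of the 50 genes were lower in both lines, against 33.3% of all genes. Higher in PC3 and lower in DU145 were 19 of the 50, against 19.7% of all genes, so both shares were above those of all genes. The balance between these groups turned with quantile normalization, with 22 and 25 of the 50, and in the deposited value table, with 23 and 26. For 11 genes the opposite ratios were each beyond 2 of the median spot SDs (0.16), as for 8.12% of all genes, and these kept their opposite signs under each of the 9 alternative settings. One of them, CCNA2, lay within 2 SDs of its own 10 spots in PC3 (0.20, spot SD 0.14). Across the 50 genes the ratios of the lines had a Pearson r of 0.16 and a Spearman rho of 0.13, and across all genes 0.15 and 0.17. These are correlations across genes, which are not independent replicates, and no test of a difference between the lines can be made with 1 array for each condition.

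The levels in the control cells differed between the lines for some of the genes. The scaled log2 level in PC3-shC minus that in DU145-shC had a median of 0.18 over the 50 genes and 0.12 over all 17482 genes compared. Of the 50 genes, 9 were higher in PC3-shC by over 2-fold, against 22.1% of all genes, and 2 were lower by over 2-fold, against 20.0%. SPC25 was the farthest above, at 1.93, followed by INCENP (1.75) and CDK1 (1.72). TOP2A (-1.22) and ECT2 (-1.17) were the pair lower by over 2-fold.

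Across both lines, limma was fitted with cell line as the block, which leaves 1 residual degree of freedom. None of the 17129 genes tested passed an adjusted p of 0.05 (0.0%), and 6.1% had an unadjusted p under 0.05. Of the 50 genes, 2 had an unadjusted p under 0.05, both lower, PTTG1 (mean log2 ratio -0.78) and NDC80 (-0.53). The number under 0.05 was 5 with normexp, against 7.07% of all genes, 3 with median scaling (5.9%), 3 among genes above background on all 4 arrays (7.65%) and 0 without the block (0.134%). The lowest Benjamini-Hochberg adjusted p among the 50 from limma was 0.745, and the lowest under any alternative was 0.0536, with no filter on dim genes, a setting in which 35.4% of all genes and 2 of the 50 had an unadjusted p under 0.05. Without the block, no gene was called either.

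Further lists of cell cycle genes were described in the same way, by counts and medians. Of 85 other mitotic genes, all matched, 73 were lower and 12 higher in DU145, with a median of -0.37 and 13 lower by over 1.5-fold, against 52.7% of all genes below 0 and 8.64% past 1.5-fold. In PC3, 56 were lower and 29 higher, against 55.7% of all genes below 0, with a median of -0.07, which was 0.02 in the deposited value table. CENPQ, of the inner kinetochore, had the lowest ratios that the lines shared, with signals of 768 and 427 in PC3 and 495 and 224.9 in DU145 (-0.99 and -1.18). CENPM (-0.45 and -0.63), SPC24 (-0.72 and -0.45) and the CDK subunit CKS1B (-0.42 and -0.77) were also lower in both. Higher in both were CDKN1A (1.29 and 0.62) and SKA2 of the outer kinetochore (0.28 and 0.91). CDKN1A encodes the CDK inhibitor p21 and was on this list, though it is not a gene of mitosis. It gave 73.2 and 198 in PC3, the highest ratio of the list there, and 30.1 and 47.5 in DU145. CDC27 (0.20 and 0.12) and FZR1 (0.02 and 0.18), of the anaphase-promoting complex, were closer to 0.

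Of 10 genes of MuvB and DREAM, the complexes that bind CHR and E2F motifs, 9 were lower in PC3 and 8 in DU145, with medians of -0.17 and -0.16, against 55.7% and 52.7% of all genes below 0. E2F4, the E2F of DREAM, gave 648 and 503 in PC3 and 445 and 252 in DU145 (-0.51 and -0.86). E2F5 was at -0.65 and -0.16, its partner TFDP1 at -0.15 and -0.40, and the MuvB subunits LIN9 at -0.20 and -0.23 and LIN37 at 0.25 and 0.17.

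Of 35 genes of S phase, 33 were lower and 2 higher in each line, with medians of -0.38 in PC3 and -0.40 in DU145. Below 0 were 55.7% of all genes in PC3 and 52.7% in DU145. Past 1.5-fold, 8 were lower in PC3 and 7 in DU145, against 10.0% and 8.64% of all genes. MCM3, of the replicative helicase, gave 17600 and 9690 in PC3 and 9890 and 6380 in DU145 (-1.002 and -0.673). E2F2 (-0.74 and -0.60), PCNA, the sliding clamp (-0.60 and -0.49), and MCM10 (-0.88 and -0.49) were lower in both. The S phase median in PC3 lay between -0.48 and -0.28 over the settings, while the median of the 50 mitotic genes there was -0.17 with median scaling and 0.02 in the deposited value table.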

How the data were processed

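RNA of 4 samples was measured on 4 one-colour (Cy3) Agilent arrays, labelled from 0.1 µg of total RNA each. The authors deposited the scanner output of Agilent Feature Extraction (12.1.0.3 for PC3, 12.0.3.1 for DU145), in which the intensity of a spot is the processed signal, with the background subtracted and no scaling between arrays. A deposited value table held the processed signal times 1 constant for each array, to within 0.5%, and was an alternative.

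Groups came from the sample labels. From the processed signals, log2 values were taken and the 75th percentile of the non-control spots of each array was subtracted. Control and outlier spots were left out, and spots of a probe were averaged. Symbols came from probe accessions, without version, in a RefSeq table of GRCh38.p14 (35076 of 58201 probes). The PC3 files carry a newer annotation, and 188 probes matched only through the older. The probe with the highest mean stood for a gene. A gene entered the comparison of a line if at least 1 of its 2 arrays showed it well above background, with dim values raised to the lowest signal well above background. A gene is called past a fold, without a test. limma, with p-values adjusted by Benjamini-Hochberg, took genes that passed this on 2 or more arrays. The members and lists were chosen with earlier results of these data known, and genes outside the members were named by the size of their smaller ratio in both lines, up to 4 in each direction of each list, besides ESS2, CDKN1A and markers. Some of the markers are not reported here. Promoter windows came from RefSeq. Calculations were tested on simulated data. Alternatives were median scaling, quantile normalization, normexp (offset 50), the deposited table, mean of probes, plain dim signals, both arrays above background, no filter, outliers kept, each probe on its own and, for limma, no block and all 4 arrays above background. The tools were limma 3.58.1 in R 4.3.3, and pandas 2.3.3, numpy 2.4.6, matplotlib 3.10.9 and scipy 1.17.1 in Python 3.11.15.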

Additional observations from a re-analysis of the deposited data

Results flagged for a closer look

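Of the 50 mitotic and G2/M genes, 11 were higher in PC3-shESS2 and lower in DU145-shESS2, each by more than 2 of the median spot SDs (0.16). The share over all genes was 8.12%. In PC3, 13 of the 50 were higher by this measure, against 30.7% of all genes. Beyond 2 scanner errors, 4 were higher there (KIF2C, CDCA8, CENPE and DLGAP5), against 13.3% of all genes. By the SD of its own 10 spots in PC3 (0.14), CCNA2 lay within 2 SDs there. The PC3 log2 ratio minus the DU145 log2 ratio was 1.28 for KIF2C, 1.14 for CENPE, 1.07 for CDC20, 1.04 for CDCA8 and 1.01 for ASPM. It was 0.93 for CCNA2, 0.90 for DLGAP5, 0.89 for BUB1, 0.72 for CDC25C, 0.50 for KIF20A and 0.50 for CENPA. Each line has 1 array for each condition, so the difference between the lines was not tested.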

How the results depend on the processing

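The DU145 median of the 50 genes stayed between -0.56 and -0.46 and the count of genes below 0 at 48 or 49 under each setting, with 60 of 61 probes below 0 where each probe was counted. The settings for dim signals and the background filters could not change these values, as all 61 probes were well above background. With median scaling the PC3 median was -0.17, 3 genes were lower by over 1.5-fold in PC3 and 0 by over 2-fold in DU145. With quantile normalization the PC3 median was 0.0121 and 1 gene was higher by over 1.5-fold there (9.54% of all genes). With normexp, 1 gene was higher by over 1.5-fold in PC3 (4.87% of all genes), and 15 were lower by over 1.5-fold and 1 by over 2-fold in DU145. In the deposited value table the PC3 median was 0.021, 2 genes were higher by over 1.5-fold in PC3 (12.6% of all genes) and 0 were lower by over 2-fold in DU145. The share of all PC3 genes below 0 was 55.7% as reported, 65.1% with median scaling and 46.2% in the deposited value table. limma called 0 genes under each setting. A slide block could not be fitted apart from the cell line, and each line on its own gives values with no test. The limma fit with the cell line as a block pairs the arrays of a line, and without it the lowest unadjusted p of the 50 genes from limma was 0.243. With 1 array for each condition none could be left out. The cause of these changes was not tested.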
